A study of Rattus norvegicus with 44 samples.

Results

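Kidney cortex of male rats labelled heterozygous (Het) for Xdh was compared with that of wild-type (WT) rats at postnatal day (PND) 21, the oldest age collected, in 4 Het and 3 WT libraries. A gene entered the description when its FPKM (a read count set against the length of the gene and the size of the library) was at least 1 in 3 or more of these 7 libraries. This held for 14054 of the 32545 genes in the table, of which 13048 are protein coding. Of the 14054, 12776 reached the minimum in all 7 libraries, 44 reached it through Het libraries alone and 10 through WT libraries alone. At the edge of the rule, the 339 genes that passed in exactly 3 libraries had a median of 0.973 FPKM and the 428 genes that passed in 2 had 0.773 FPKM. The series holds 44 libraries of 3 genotypes, WT, Het and homozygous (Homo), at PND0, 5, 15 and 21. Values at PND15 (4 Het, 4 WT) and of Homo animals at PND21 (3 libraries) are used here beside the main comparison. All animals were untreated as far as the labels say. The sources used here do not give the kind of Xdh allele, the strain or the litter of each pup, so p-values measure only the spread between these samples.

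Xdh encodes xanthine dehydrogenase, which carries out the last steps of purine breakdown, from hypoxanthine to xanthine and from xanthine to urate. It needs a molybdenum cofactor, and it can pass electrons to NAD or, in its oxidase form, to oxygen, which gives superoxide and hydrogen peroxide. In rats urate is degraded further by urate oxidase of the liver, and the proximal tubule of the kidney reabsorbs and secretes urate. A heterozygous animal carries 1 changed and 1 intact allele, so the comparison asks how the kidney transcriptome at this age differs when 1 allele is changed.

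The 7 libraries held 14019183 to 17425473 reads counted on genes, and mitochondrial transcripts took 10.1% to 11.8% of these reads. Along their main axis of variation the libraries parted not by genotype but by the number in their titles, whose meaning the labels do not give. Het replicate 1 and WT replicates 1 and 2 have numbers of 100 and above, and Het replicates 2, 3 and 4 and WT replicate 3 have numbers below 100 (replicates are numbered as the records are ordered). On the first principal component, with 31% of the variance, the first 3 libraries lay at -14.8, -16.1 and -22.1 and the other 4 at 20, 16.2, 4.54 and 12.2. Since 3 of 4 Het libraries but 1 of 3 WT libraries have a number below 100, a difference between the genotypes is partly a difference between the title numbers. Differences within each kind of number are therefore given beside the results, as is a fit with a term for it. Each such difference rests on 1 library on 1 side, Het replicate 1 at numbers of 100 and above and WT replicate 3 below 100. For a gene without overlap between Het and WT, both differences must have the same sign. The Homo libraries at PND21 all have numbers of 100 and above, 1 of them by a title with another prefix that was read the same way.

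**Figure D1:**
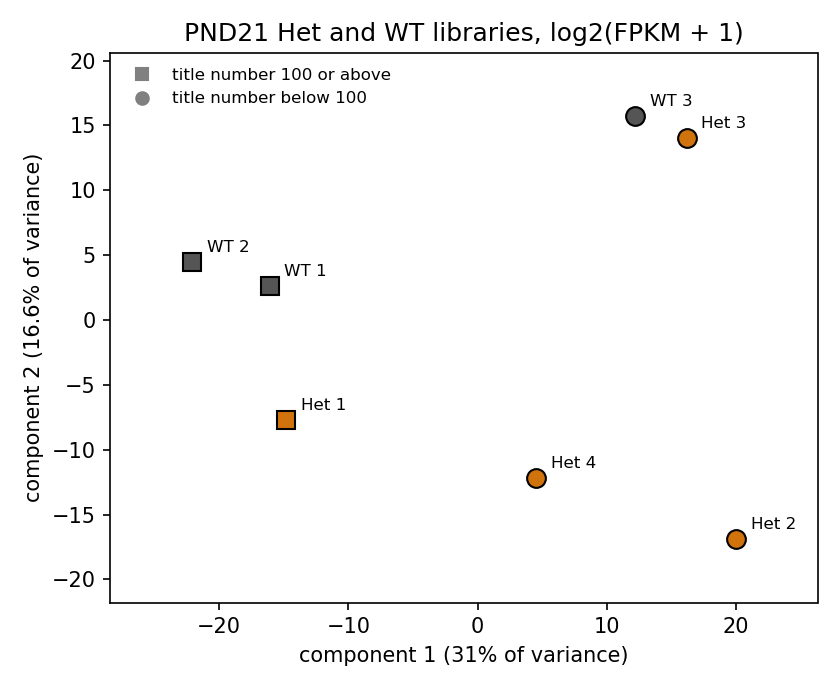
First and second principal components of log2(FPKM + 1) over the genes described, for the 4 Het (orange) and 3 WT (grey) libraries at PND21. Squares (title numbers of 100 and above) lie at -14.8 or lower on the first component, which holds 31% of the variance, and circles (numbers below 100) at 4.54 or higher, with Het and WT libraries on both sides.

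Xdh (ENSRNOG00000007081; chromosome 6, 25149235 to 25211494, minus strand, in the coordinates of the table, for which the sources used here name no build) was the targeted gene. Het libraries held 17.87, 9.703, 12.15 and 13 FPKM in replicates 1 to 4, and WT libraries held 22.27, 24.88 and 25.4 FPKM. Every Het library lay below every WT library, and the Het library nearest to WT was replicate 1. The mean was 13.2 ± 3.43 FPKM (SD, n = 4) in Het and 24.2 ± 1.68 FPKM (SD, n = 3) in WT, so that Het held 54.5% of the WT level. The difference was -0.86 on the log2(FPKM + 1) scale, and a two-sided exact permutation test gave p = 0.0571, where 0.0286 is the smallest p that these group sizes allow. Adjusted over the 3 ages at which it was run, this p was 0.0856. The limma fit over all 44 libraries gave the same difference an SE of 0.61 and an adjusted p of 0.924. That SE includes the spread of Xdh at PND0, where Het libraries ranged from 1.749 to 26.75 FPKM and Homo libraries from 0.6493 to 22.51, against the labels of some of them. With the PND0 libraries left out, an alternative chosen after seeing the data, limma gave an SE of 0.22, an unadjusted p of 0.000471 and an adjusted p of 0.621. A planned limma fit on the 7 libraries alone gave an SE of 0.17, an unadjusted p of 0.000968 and an adjusted p of 0.844. On the 10 PND21 libraries these were 0.168, 0.000439 and 0.867. Among libraries with title numbers of 100 and above the difference was -0.38, and among those below 100 it was -1.07.

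The mean level of Xdh transcript was also lower in Het libraries at PND15 and PND5, but not at PND0. There the Het mean was 10.1 ± 14.4 FPKM (SD, n = 3), set by the library at 26.75 FPKM, and the WT mean 2.84 ± 1.07 FPKM (SD, n = 4). At PND15 Het held 69.4% of the WT mean, with 10.9 ± 1.78 FPKM (SD, n = 4) against 15.7 ± 1.88 (SD, n = 4), without overlap (two-sided exact permutation p = 0.0286, the smallest possible, and 0.0856 adjusted over 3 ages). At PND5 Het held 70.1% of WT (two-sided exact permutation p = 0.114). The difference at PND21 minus that at PND15 was -0.36 ± 0.83 (SE, limma adjusted p = 0.983). That SE also includes the spread of Xdh at PND0, so this fit says little on a change with age. Homo libraries at PND21 held 13.49, 16.6 and 18.02 FPKM, which overlapped the Het libraries and lay below all WT libraries. The Homo mean was 16.0 ± 2.32 FPKM (SD, n = 3). Homo minus Het was 0.29 ± 0.61 (SE of the same fit, with the same limit, limma adjusted p = 0.753). A transcript level does not show which allele the transcript came from.

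**Figure D2:**
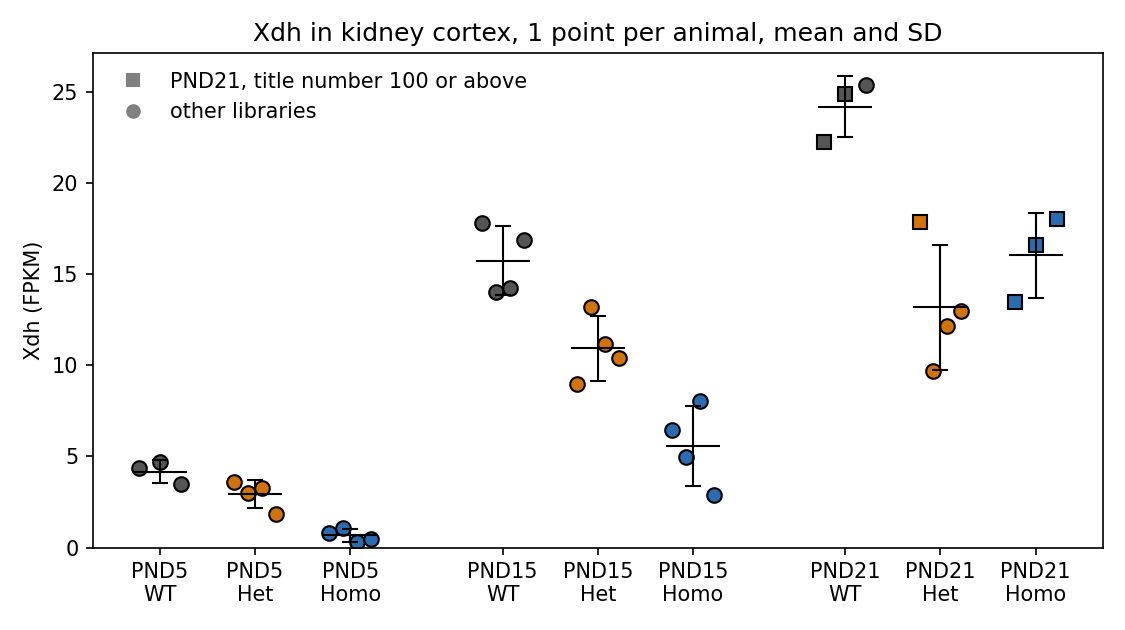
Xdh level in FPKM for each animal at PND5, PND15 and PND21 by genotype, with the group mean and SD. At PND21 the 4 Het libraries lie between 9.703 and 17.87 FPKM, below the 3 WT libraries at 22.27 to 25.4 FPKM, and the 3 Homo libraries lie at 13.49 to 18.02 FPKM.

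The stretch of 250 bases before the start of Xdh is shown because Xdh is the gene that the genotype labels name. It is taken from RefSeq, build GRCr8, chr6:27282069-27282318, plus strand of that build, 5′ to 3′. Capitals mark the letters CCAAT or, on the other strand, ATTGG, the box bound by the factor NF-Y in many promoters. The window holds 1 match, on the other strand, which begins 78 bases before the start. Of all 33469 windows of this length in the table, 34% hold CCAAT on either strand.
Xdh: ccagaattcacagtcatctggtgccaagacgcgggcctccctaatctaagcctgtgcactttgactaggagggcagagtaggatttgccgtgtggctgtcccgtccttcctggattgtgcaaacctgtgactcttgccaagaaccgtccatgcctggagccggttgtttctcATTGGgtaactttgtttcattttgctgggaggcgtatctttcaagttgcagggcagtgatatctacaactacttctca

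No gene, Xdh included, passed the test across all genes between Het and WT. With limma on log2(FPKM + 1) and Benjamini-Hochberg adjustment over the 16283 genes tested in the series, 0 of the 14054 genes (0%) had an adjusted p under 0.05. At an unadjusted p under 0.05 there were 798, 5.68% of the genes, of which 385 were higher in Het (2.74%) and 413 lower (2.94%). Het and WT libraries did not overlap for 799 genes (5.69%), with 420 higher in Het (2.99%) and 379 lower (2.7%). Over all 16283 genes, limma called 0, and 895 had an unadjusted p below 0.05. Run on reads recovered from the FPKM, voom also called 0, and 733 had an unadjusted p below 0.05.

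The differences were small in most genes. The median size of the difference was 0.093 log2 units, and 90% of the genes differed by less than 0.27. The 95% confidence interval lay within 2-fold in both directions for 13193 genes (93.9%) and within 1.5-fold for 11614 (82.6%). These and later fold intervals are on the log2(FPKM + 1) scale, which understates fold changes of low genes. For scale, Homo against Het libraries at the same age, where the groups also differ in title numbers and share the Het libraries with the comparison here, had 6101 genes called (43.4% of the 14054), 2798 higher in Homo (19.9%) and 3303 lower (23.5%).

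**Figure D3:**
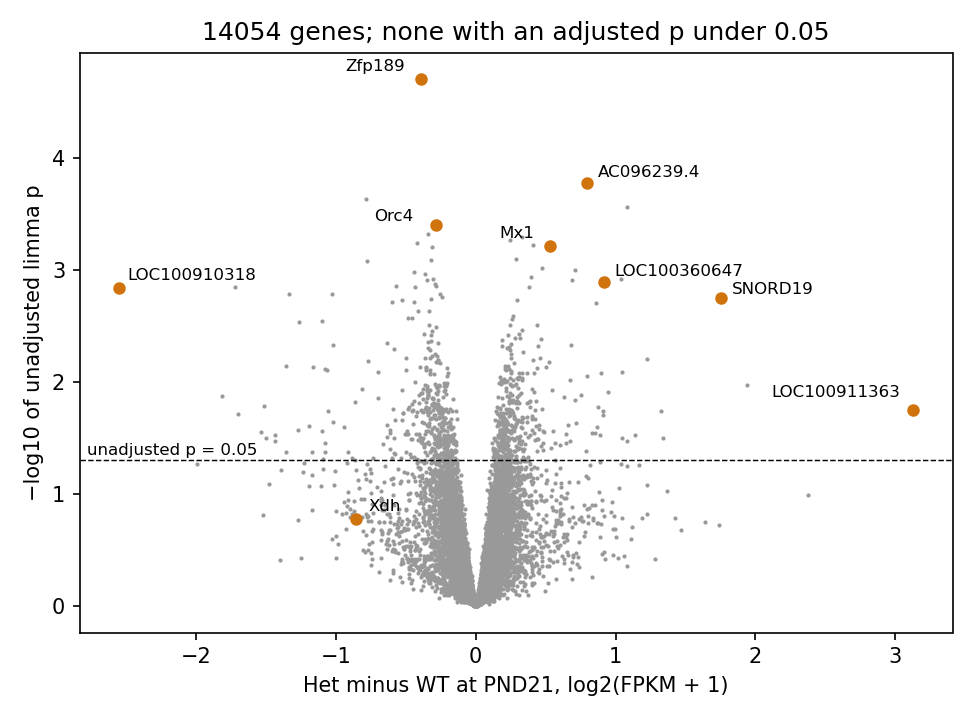
Difference between Het and WT at PND21 on the log2(FPKM + 1) scale (x axis) against −log10 of the unadjusted limma p (y axis) for 14054 genes, with named genes in orange. No gene has an adjusted p under 0.05, and the lowest unadjusted p belongs to Zfp189. Xdh, at -0.86, has an unadjusted p of 0.167 in this fit of all 44 libraries.

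The gene with the lowest p was Zfp189, a zinc finger gene (ENSRNOG00000006972; chromosome 5, 64789456 to 64800810, plus strand). Its level was 3.749, 3.968, 3.98 and 4.308 FPKM in the Het libraries and 5.726, 5.384 and 5.578 FPKM in WT. The groups were well apart, with a gap wider than the range inside either of them. The difference was -0.39 ± 0.080 (SE), with an adjusted p of 0.324 in limma, and it was -0.46 and -0.37 among title numbers of 100 and above and below 100. At PND15 the means were 5.38 FPKM in Het and 5.45 in WT, and Homo libraries at PND21 held 6.454, 7.179 and 7.16 FPKM, above all Het and WT libraries. Under array weights Zfp189 passed the test, with an adjusted p of 0.0302. That setting put 2462 of 16283 genes at an unadjusted limma p under 0.05, against 895 in the main fit.

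Among the 10 genes of lowest p that were lower in Het, none of them called, were 2 subunits of the origin recognition complex, which marks the sites where DNA replication starts. Orc4 held 14.55, 14.66, 12.67 and 13.75 FPKM in Het and 17.4, 17 and 16.94 FPKM in WT, without overlap, at -0.28 ± 0.072 (SE, limma adjusted p = 0.694). Orc3 held 9.496 to 10.93 FPKM in Het and 11.85 to 13.41 FPKM in WT, at -0.30. The others were Zfp445, a zinc finger gene of imprint maintenance, at -0.34; Cdc73, a subunit of the PAF1 complex that travels with RNA polymerase II, at -0.31; Rif1, which acts in replication timing and DNA break repair, at -0.32; Xiap, an inhibitor of caspases, at -0.36; the helicase gene Helz at -0.35; Nf1, which encodes the Ras GTPase activator neurofibromin, at -0.29; and the locus AABR07043601.1 at -0.78. Long genes as a class had a slightly lower median in Het, which not all libraries shared. With the genes in 5 classes of length, the longest (3830 to 29464 bases) had a median difference of -0.05 and the shortest (42 to 1151 bases) of 0.06. Set against each gene's mean over the 7 libraries, the longest class had medians of 0.00515, -0.081, 0.00203 and -0.00989 in Het replicates 1 to 4. In WT replicates 1 to 3 they were 0.0561, 0.0425 and -0.00545. The trend thus came from Het replicate 2 and WT replicates 1 and 2. The part of this trend in the single genes was not tested.

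Among the 10 genes of lowest p that were higher in Het, also not called, B9d2, a protein of the transition zone of primary cilia, held 12.37, 13.81, 11.23 and 11.4 FPKM in Het and 8.743, 9.447 and 9.142 FPKM in WT. Its groups did not overlap, and the difference was 0.38 ± 0.11 (SE, limma adjusted p = 0.694). Within the 2 kinds of title number it was 0.41 and 0.37, where the lack of overlap fixes the sign. Pias4, a SUMO ligase, held 12.77 to 14.21 FPKM in Het and 10.47 to 11.17 FPKM in WT, at 0.30. Ntmt1, which methylates the N-terminus of proteins, was at 0.29 without overlap, and Gas2l1, which links actin to microtubules, at 0.41 without overlap. Gas2l1 passed the test under array weights, with an adjusted p of 0.0288. Ndufaf5, an assembly factor of respiratory complex I, was at 0.39, with Het replicate 1 (14.76 FPKM) inside the WT range of 12.65 to 14.81 and the other Het libraries at 18.72 to 19.42. Lysmd2 was at 0.33, Fam32a at 0.25, the locus AC096239.4 at 0.80 and the small nucleolar RNA SNORD19 at 1.75. LOC100360647 was at 0.92, with 105.1 FPKM in WT replicate 3 and 371.6 to 538.5 FPKM in the other 6 libraries. Its difference was 0.18 among title numbers of 100 and above, where that library is absent.

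Few genes differed by more than 2-fold on the log2(FPKM + 1) scale. Counting genes whose higher group averaged 5 FPKM or more, there were 40, 19 higher and 21 lower in Het, and in 33 of them the groups overlapped (over all genes, 5.69% did not overlap). Of the 40, 15 are not protein coding and 11 are protein coding loci with a provisional name. LOC100910318, described in the table as a trafficking protein particle complex subunit 2-like gene, varied widely inside the WT group. It was at 28.89 and 29.85 FPKM in WT replicates 1 and 3, and at 3.251 FPKM in WT replicate 2. Het libraries held 1.011, 1.775, 3.843 and 0.9618 FPKM. At PND15 the order was the other way, with means of 8.97 FPKM in Het and 0.592 FPKM in WT. Such genes can share reads with a near-identical copy elsewhere in the genome, and counts of such copies are uncertain in a table of this kind. Ndufa1, a subunit of complex I, had 29.1 and 24.45 FPKM in Het replicates 1 and 4 and 1.208 to 3.65 FPKM in the other 5 libraries.

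The other genes of purine metabolism, which supply or share the substrates of xanthine dehydrogenase, did not pass the test. Of 24 genes of the list, Xdh included, 0 were called, 12 were above and 12 below 0, and the median difference was -0.0018, against 0.00935 over all 14054 genes. In 23 of the 24 the 95% confidence interval lay within 2-fold, the exception being Xdh. Pnp, purine nucleoside phosphorylase, which makes hypoxanthine and guanine, held 122.3, 133.1, 121.5 and 123.4 FPKM in Het and 122.3, 129.5 and 126.8 FPKM in WT. Its difference was -0.01 ± 0.088 (SE). Aprt, which salvages adenine, held 244.7 to 260.2 FPKM in Het and 219.6 to 260.2 FPKM in WT, at 0.08. Adsl, adenylosuccinate lyase, which acts in the synthesis of purines, was the member with the lowest p: 24.75, 26.97, 26.65 and 29.59 FPKM in Het and 22.57, 22.74 and 23.58 FPKM in WT, without overlap, at 0.22 ± 0.074 (SE, limma adjusted p = 0.87).

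The other genes next to xanthine dehydrogenase in the pathway that are described here overlapped between the groups. Hprt1 is not among them, since neither of its entries met the rule. Gda, guanine deaminase, which makes xanthine from guanine, held 2.535 to 4.41 FPKM in Het and 2.281 to 4.826 FPKM in WT. In Homo libraries it held 34.09 to 56.17 FPKM and rose against Het by 3.30 log2 units (limma adjusted p = 4.32e-11). Ada, adenosine deaminase, was at 0.20 and Adk, adenosine kinase, at 0.06. Of the other molybdenum enzymes, aldehyde oxidase Aox1 held 3.718, 2.342, 2.54 and 4.132 FPKM in Het and 4.072, 4.712 and 3.571 FPKM in WT, at -0.31 ± 0.17 (SE), and sulfite oxidase Suox was at -0.01. Mocos, the sulfurase that completes the cofactor of Xdh and Aox1, was at 0.10 with overlap. Of 11 genes of the molybdenum list 0 were called.

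Urate transporters did not pass the test either. Of 14 genes 0 were called, 7 lay above and 7 below 0, and the median was -0.024, with 13 intervals within 2-fold. Slc22a12, the urate exchanger of the proximal brush border, held 239.4, 235.2, 245.1 and 178 FPKM in Het and 191.2, 191.4 and 251.3 FPKM in WT. Both groups held low and high libraries, and the difference was 0.09 ± 0.22 (SE). Slc2a9, the urate carrier of the basolateral side, held 4.819, 4.608, 4.201 and 4.321 FPKM in Het and 4.944, 5.348 and 4.951 FPKM in WT. It was lower in each Het library, by a narrow margin, at -0.15 ± 0.12 (SE, limma adjusted p = 0.93). Slc5a8, a sodium-coupled monocarboxylate carrier, was the other gene of the 14 with every Het library below every WT library, where 2.7% of all genes were. It held 19.17 to 23.47 FPKM in Het and 23.53 to 26.72 FPKM in WT, at -0.25 ± 0.27 (SE). The lowest values of the list were those of Slc5a12, a related carrier, at -0.32 ± 0.35 (SE), and Slc16a9, at -0.31 ± 0.20 (SE), both with overlap. Abcg2, a urate exporter, was at -0.09 and Slc17a1, a phosphate and urate carrier, at 0.24, both with overlap.

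The 5 genes whose levels followed Xdh most closely over the 7 libraries, among those with a mean of at least 5 FPKM, were Ppwd1 (Pearson r = 0.969), the ubiquitin ligase gene Ube3a (0.956), Numb, an inhibitor of Notch signalling (0.947), Zfp445 (0.947) and Msl2 (0.946). These correlations describe 7 libraries of 2 genotypes, and a gene that parts the genotypes is favoured by the choice. Ube3a held 8.169 to 9.468 FPKM in Het and 9.894 to 10.94 FPKM in WT. None of the 5 was called.

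Transporters of the proximal tubule lay close to WT levels in Het animals. Markers of the proximal tubule were abundant in all 7 libraries, with a summed level of 6731 to 7948 FPKM over the transport list. This does not tell cortex from whole kidney. Of 31 genes for proximal transport and endocytosis 0 were called, 11 lay above and 20 below 0, the median was -0.044, and all 31 intervals lay within 2-fold. Slc34a1, the sodium phosphate cotransporter, held 2376, 1691, 1888 and 1959 FPKM in Het and 1954, 2058 and 2064 FPKM in WT, at -0.04 ± 0.20 (SE). Slc5a2, the glucose transporter SGLT2, was at -0.08, the endocytic receptor megalin (Lrp2) at -0.15 and the organic anion transporter Slc22a6 at 0.05, all with overlap. In Homo libraries Slc34a1 was at 341.2 to 881.4 FPKM and fell by 1.64 log2 units against Het (limma adjusted p = 3.91e-08). With fewer cells of a type and less RNA per cell not told apart in bulk tissue, these are levels in the cortex and not in a cell.

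The more distal segments gave 0 called genes as well: 0 of 15 in the loop of Henle list (median 0.014), 0 of 14 in the distal tubule (0.0071), 0 of 15 in principal cells (0.099) and 0 of 15 in intercalated cells (0.018). Umod, the uromodulin of the thick ascending limb, held 1034 to 1555 FPKM in Het and 1204 to 1331 FPKM in WT. Aqp2, the water channel of the collecting duct, held 102.9, 308.5, 225.7 and 232.7 FPKM in Het and 129.6, 85.15 and 160.7 FPKM in WT. Het replicate 1 stood with the WT libraries, and the 3 Het libraries with title numbers below 100 lay above all WT libraries. The difference was 0.73 ± 0.40 (SE, limma adjusted p = 0.903), and it was -0.03 among numbers of 100 and above and 0.65 below 100. Genes of osmotic response and inner medulla, which a dissection can bring along, had a median of 0.36 over 12 genes, -0.25 among numbers of 100 and above and 0.61 below.

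Podocyte genes lay on the lower side, without a call. Of 14 genes 13 were below 0 and 1 above, the median was -0.099, and 2 were lower at an unadjusted p under 0.05, where 2.94% of all genes were. With the title number term 1 of the 14 was, Thsd7a, while Plce1 was not. Thsd7a, a podocyte membrane protein, held 2.052, 1.438, 1.676 and 1.716 FPKM in Het and 2.908, 2.912 and 2.263 FPKM in WT, without overlap, at -0.44 ± 0.12 (SE, limma adjusted p = 0.694). Plce1, a phospholipase of the podocyte, was at -0.20 with overlap. Nphs1, nephrin, was at -0.21 with overlap. The list median was 0.06 among title numbers of 100 and above, -0.07 below 100 and -0.05 with the title number term, and its summed level was 356.7 to 414.2 FPKM in Het and 381.9 to 463.8 FPKM in WT. The part of the title numbers in this was not tested further.

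Tubular injury genes, which mark damaged or dedifferentiated tubule, were near WT levels in Het animals and far from them in Homo animals. Of 24 injury genes 0 were called between Het and WT (median 0.061, with 16 above and 8 below 0). Between Homo and Het, 22 of the 24 rose and 0 fell, with a median of 1.8. Of all 14054 genes, 19.9% were called higher in Homo than in Het and 23.5% lower. Lcn2, lipocalin 2 of the distal injury response, held 6.813, 11.83, 11.77 and 11.99 FPKM in Het and 9.404, 5.241 and 9.531 FPKM in WT. Its difference was 0.37 ± 0.29 (SE, 95% interval 0.862-fold to 1.93-fold), and Homo libraries held 494, 333.7 and 292.5 FPKM. Spp1, osteopontin, held 469.7 to 961.1 FPKM in Het, 575.1 to 828 FPKM in WT and 7558 to 9567 FPKM in Homo. Clu, clusterin, held 55.66 to 73.84 FPKM in Het, 59.64 to 63.98 FPKM in WT and 1349 to 1811 FPKM in Homo.

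Havcr1, which encodes the injury marker KIM-1, did not reach the rule, with 0.7282, 1.322, 0.7222 and 0.9563 FPKM in Het and 0.8051, 1.464 and 0.9159 FPKM in WT. It held 128.5 to 254.9 FPKM in Homo libraries, a rise of 6.45 log2 units over Het (limma adjusted p = 4.22e-21). Mmp7, a matrix protease of injured tubule, was at 0 in all 4 Het libraries and at 28.75 to 49.64 FPKM in Homo. Vcam1, an adhesion molecule, was at -0.27 ± 0.16 (SE) in Het against WT with overlap, and was not called between Homo and Het. In these data the Het kidney had none of the called injury response that the Homo libraries showed, and the interval of Lcn2 reached 1.93-fold.

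Matrix and stroma genes followed the same division. Of 24 fibrosis and matrix genes 0 were called between Het and WT, with 21 below 0 and a median of -0.20, which was -0.22 among title numbers of 100 and above and 0.03 below. Col1a1, a chain of fibrillar collagen, held 199.3, 186.9, 177.7 and 197 FPKM in Het and 245, 236.1 and 168.9 FPKM in WT, at -0.17 ± 0.29 (SE). Between Homo and Het 18 of the 24 rose, where 19.9% of all genes did. Macrophage genes counted 0 of 16 called between Het and WT (median 0.059) and 16 of 16 higher in Homo than in Het, against the same 19.9%. C1qa, a complement chain made by macrophages, held 15.06 to 17.81 FPKM in Het and 14.85 to 18.29 FPKM in WT.

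Interferon-stimulated genes were the group with the most low p-values, still without a call. Interferon switches on antiviral genes through its receptor and a set of transcription factors, IRF9 among them, and it also raises antigen presentation. Of 28 genes in the list of antigen presentation and interferon, 25 were above 0 and 3 below, with a median of 0.16. At an unadjusted p under 0.05 there were 7, all higher in Het, where 2.74% of all genes were higher at that level, and in 7 genes all Het libraries lay above all WT libraries, where 2.99% of all genes did. The 7 of low p were Mx1, Oas1a, Isg15, Mx2, Usp18, Irf7 and Irf9, and the same number had an unadjusted p under 0.05 with the title number term. Mx1, which is in both counts, met the rule through Het libraries alone. The median was 0.20 among title numbers of 100 and above and 0.17 below 100.

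Mx1, an antiviral GTPase, held 1.01, 1.636, 1.087 and 1.374 FPKM in Het and 0.3686, 0.6452 and 0.7127 FPKM in WT. Every Het library lay above every WT library at a low level, and the difference was 0.53 ± 0.14 (SE, limma adjusted p = 0.694). No WT library reached 1 FPKM, so Mx1 met the rule through Het libraries alone, and the rule favours such a separation. Isg15, a ubiquitin-like modifier, held 6.724, 8.256, 8.014 and 6.873 FPKM in Het and 5.775, 5.29 and 4.65 FPKM in WT, also apart, at 0.44 ± 0.14 (SE, limma adjusted p = 0.86). Usp18, which removes Isg15 from proteins, held 1.914, 1.621, 1.938 and 1.767 FPKM in Het and 0.8085, 1.397 and 1.21 FPKM in WT, at 0.40. Irf7, a transcription factor of the interferon response, held 6.104, 4.779, 4.549 and 8.207 FPKM in Het and 2.901, 4.259 and 4.625 FPKM in WT, with 1 Het library inside the WT range, at 0.48. B2m, the light chain of class I molecules, was at 0.15 with overlap.

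These genes did not stand in 1 order across the genotypes. Mx1 was at 1.98 ± 0.693 FPKM (SD, n = 3) in Homo libraries, above Het by 0.37 (limma adjusted p = 0.033). Oas1a, an antiviral enzyme, was at 0.771 ± 0.101 FPKM (SD, n = 3) in Homo, below Het by -0.43 (limma adjusted p = 0.00821) and near the WT mean of 0.736 FPKM. At PND15 Het minus WT was -0.06 for Mx1, 0.12 for Oas1a, 0.07 for Isg15 and 0.33 for Irf7. Markers of blood and immune cells are given beside this list because such cells can carry interferon genes. The 7 of 20 lymphocyte and neutrophil genes that met the rule were all above 0 (median 0.23, 0 called, summed level 17.24 to 24.09 FPKM in Het and 14.26 to 17.66 FPKM in WT), among them Lck, a kinase of T cells, at 0.42 and S100a9 of neutrophils at 0.55. The 16 macrophage and dendritic genes had a summed level of 501.1 to 556.4 FPKM in Het and 470.5 to 492.3 FPKM in WT, without overlap. Cd74, which is in both lists, made up much of it, with 271.1 to 300.4 FPKM in Het and 247.2 to 263.5 FPKM in WT. Over the other 15 genes the sums overlapped, at 230 to 256 FPKM in Het and 207 to 245 FPKM in WT. The part of these cells in the interferon values was not tested.

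**Figure D4:**
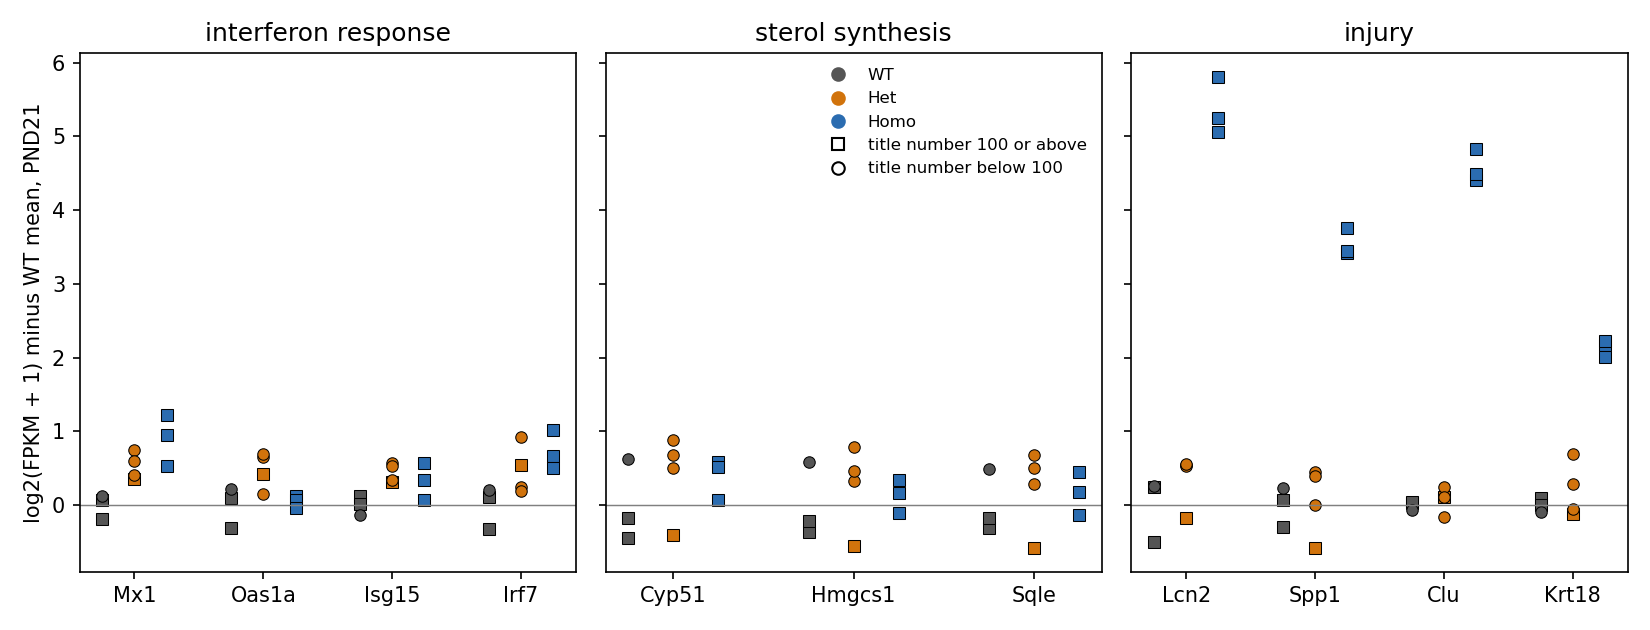
Level of 11 genes at PND21 as log2(FPKM + 1) minus the WT mean, 1 point per library, for WT (grey), Het (orange) and Homo (blue), with squares for title numbers of 100 and above. Interferon genes of Het libraries lie mostly above WT, sterol genes part by title number within Het and WT, and the injury genes Lcn2, Spp1, Clu and Krt18 lie far above WT in Homo libraries alone.

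Genes of cholesterol synthesis showed the division by title number most plainly. Of 24 genes in the list 23 were above 0 in Het against WT, with a median of 0.22 and 0 called. With the title number term the median was -0.0087, and within numbers of 100 and above and below 100 it was -0.08 and 0.04. The term itself, for numbers of 100 and above at PND21, was called for 33 of the 14054 genes (0.235%), 12 higher (0.0854%) and 21 lower (0.149%). Of these, 8 were in this list, all lower, among them Cyp51, Hmgcs1, Sqle, Msmo1, Idi1 and Fdps, which encode enzymes of sterol synthesis. Cyp51 held 18.58 FPKM in Het replicate 1 and 18.02 and 21.99 FPKM in WT replicates 1 and 2. It held 35.82, 40.66 and 47.07 FPKM in Het replicates 2 to 4 and 39.14 FPKM in WT replicate 3. The term for Cyp51 was -1.02 ± 0.16 (SE, limma adjusted p = 0.00132), while Het minus WT was -0.10 and 0.06 within the 2 kinds of number. The Homo libraries, though numbered 100 and above, held 37.82, 36.15 and 26.26 FPKM, all above the Het and WT libraries of such numbers.

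Promoter stretches of the sterol genes are shown because these genes moved together across the title numbers. Of the 8 genes 5 are among the RefSeq promoters used here, and for 3 the 250 bases before the start lie outside annotated genes of build GRCr8. Capitals mark CCAAT or ATTGG as above. Cyp51 (chr4:30991443-30991692, plus strand) has 0 matches, Fdps (chr2:176804817-176805066, minus strand) has 2, of which 1 on the other strand, and Msmo1 (chr16:29746863-29747112, plus strand) has 3. Against the 34% of all windows that hold the letters, this is a description of these windows only.
Cyp51: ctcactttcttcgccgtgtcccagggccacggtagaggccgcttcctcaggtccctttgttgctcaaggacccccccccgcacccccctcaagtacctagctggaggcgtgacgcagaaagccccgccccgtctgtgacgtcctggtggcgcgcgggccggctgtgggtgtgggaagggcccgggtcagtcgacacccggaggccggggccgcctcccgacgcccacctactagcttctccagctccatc
Fdps: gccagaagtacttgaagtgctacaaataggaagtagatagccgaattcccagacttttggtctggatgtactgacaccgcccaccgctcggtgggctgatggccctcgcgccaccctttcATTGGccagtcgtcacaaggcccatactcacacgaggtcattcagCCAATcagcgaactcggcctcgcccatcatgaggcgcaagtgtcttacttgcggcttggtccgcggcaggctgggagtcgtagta
Msmo1: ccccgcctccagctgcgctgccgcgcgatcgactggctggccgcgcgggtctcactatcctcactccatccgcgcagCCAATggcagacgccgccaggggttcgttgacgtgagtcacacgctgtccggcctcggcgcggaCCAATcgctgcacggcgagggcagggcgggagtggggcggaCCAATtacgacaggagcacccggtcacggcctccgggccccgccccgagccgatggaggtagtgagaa

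Other genes called by the title number term were the subunits of the basolateral bile acid transporter, Slc51a and Slc51b, both lower at numbers of 100 and above. Slc51a held 18.8, 20.62 and 28.45 FPKM at such numbers and 30.71 to 62.87 FPKM below 100. Odc1, which starts polyamine synthesis, was lower too, at -0.65 (limma adjusted p = 0.0453), and Tob2, an antiproliferative protein, was higher, at 0.85 (limma adjusted p = 0.00976). The clock gene Per1 divided the same way without passing the test for the term: 38.87, 47.57 and 47.3 FPKM at numbers of 100 and above, and 16.58 to 18.49 FPKM below 100. Homo libraries, all of such numbers, held 11.8, 33.64 and 38.82 FPKM.

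Respiratory chain genes leaned to higher values in Het by a small amount. All 32 entries for the 29 genes of the oxidative phosphorylation list, with Cox7a2, Cycs and Atp5f1 repeated among them, were above 0. Their median was 0.13, against 0.00935 over all genes, and 0 were called. The median was 0.09 among title numbers of 100 and above, -0.014 below 100 and 0.032 with the term. Atp5g1, a subunit of the rotor of ATP synthase, held 477.1, 537.3, 559.7 and 539.8 FPKM in Het and 367.5, 399.5 and 520.8 FPKM in WT, and WT replicate 3 stood with the Het libraries. The shortest class of genes was at 0.06 in the 7 libraries, at 0.06 among title numbers of 100 and above and 0.0011 below 100, and the part of gene length in the values of this list was not tested. With TPM in place of FPKM, the median of all genes shifted by -0.05. The 19 antioxidant genes had a median of 0.091 and 0 called, with Sod1, the cytosolic superoxide dismutase, at 0.13 ± 0.099 (SE), Sod2 of mitochondria at 0.03 and catalase (Cat) at -0.06, all with overlap. Of 23 genes of the glutathione and NRF2 response 0 were called (median 0.096). Its genes Nqo1, at 0.13, and Hmox1, at 0.09, overlapped between the groups.

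Genes of the heat shock and unfolded protein response had a median of 0.16 over 21 genes, 19 above 0, with 0 called and a median of 0.062 with the title number term. Xbp1, a transcription factor of the unfolded protein response, held 132.6, 161.7, 143.6 and 157 FPKM in Het and 121.9, 114.2 and 127.3 FPKM in WT. Its groups did not overlap, and the difference was 0.29 ± 0.12 (SE, limma adjusted p = 0.87).

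Tissues that can be carried along in a cortex sample varied between libraries. All 10 erythroid and blood genes were above 0 (median 0.41, 0 called), and their summed level was 10100 to 14190 FPKM in Het and 4641 to 11630 FPKM in WT. Hba1, an alpha globin, held 5392 to 7338 FPKM in Het and 6314, 2333 and 4863 FPKM in WT, so that WT replicate 2 was the lowest library. Globin copies share reads and cannot be parted in this table. Fat genes had a median of -0.39 over 13 genes (0 called), which was -1.1 among title numbers of 100 and above and 0.90 below. Adipoq, adiponectin, held 6.116, 4.052, 2.877 and 10.81 FPKM in Het and 8.358, 23.64 and 2.477 FPKM in WT. Of adrenal genes 2 of 13 met the rule, of liver genes 5 of 14 and of muscle genes 5 of 14, with 0 called in each list. The part of these tissues in the comparison was not tested.

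**Figure D5:**
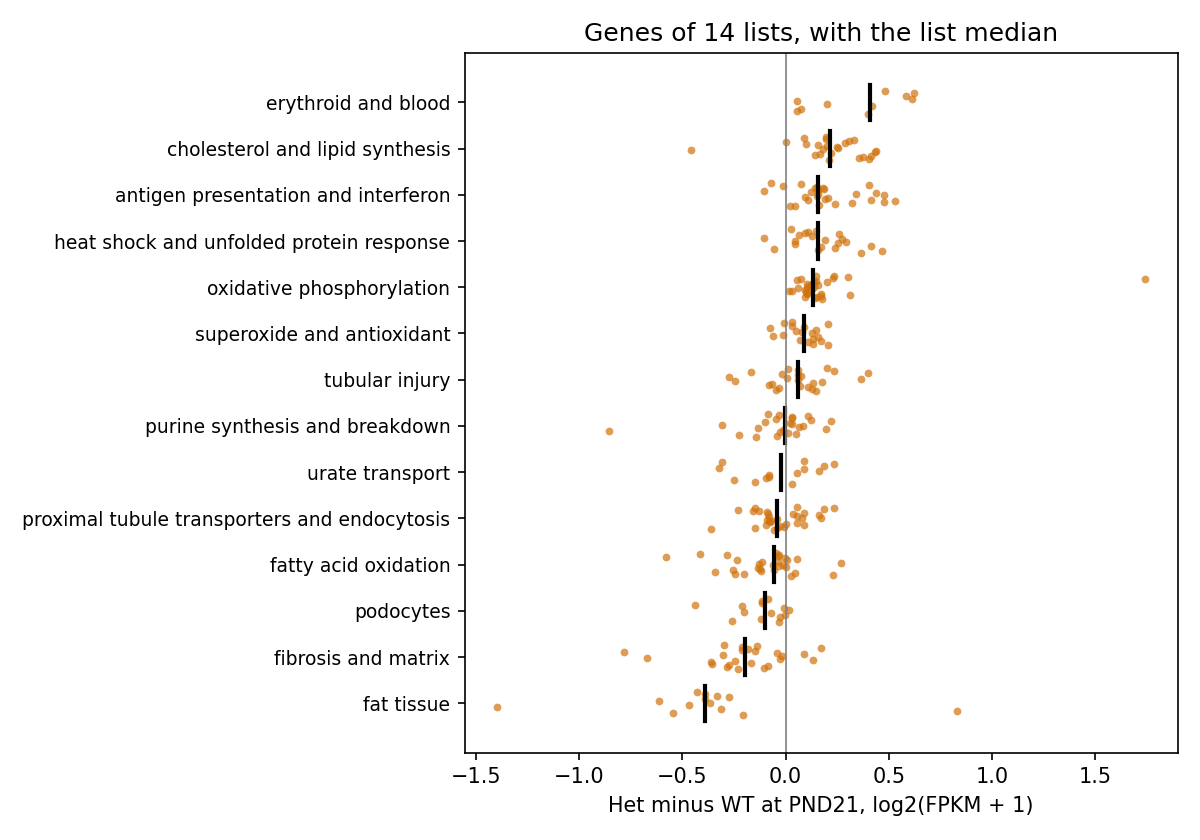
Difference between Het and WT at PND21 on the log2(FPKM + 1) scale for the genes of 14 lists that met the rule (points) with each list's median (black bar). List medians run from 0.41 for erythroid and blood genes to -0.39 for fat genes, purine genes have a median of -0.0018 with Xdh at -0.86, and no gene shown was called.

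The difference at PND21 was also set against the same difference at PND15. The contrast of the 2 differences had 0 of 14054 genes called (0%) and 651 at an unadjusted p under 0.05 (4.63%). The 5 genes of lowest p were LOC100910318, described above, at -4.69 ± 1.0 (SE, limma adjusted p = 0.67), Scx at 1.15, Osbp2 at -0.69, Mamdc2 at 1.09 and Fam32a at 0.34. Scx, a transcription factor of tendon and mesangial cells, was at 9.31 FPKM in Het and 16.6 FPKM in WT at PND15. At PND21 it was at 7.89 and 5.70 FPKM. Osbp2, an oxysterol binding protein, held 1.424, 0.8024, 1.037 and 1.071 FPKM in Het at PND21 and 1.676, 1.469 and 1.587 FPKM in WT, and at PND15 its mean was 1.23 FPKM in Het and 0.712 FPKM in WT.

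At PND15 itself 2 of the 14054 genes were called between Het and WT (0.0142%), Mamdc2 and Pgm2l1, both lower in Het. Mamdc2, a secreted protein of the matrix, had means of 2.08 FPKM in Het and 5.41 FPKM in WT (-1.02, limma adjusted p = 0.0326). Pgm2l1, which makes the sugar bisphosphate that activates phosphoglucomutase, had means of 2.22 and 4.21 FPKM (-0.69, limma adjusted p = 0.0326). At PND21 the groups overlapped for both. Mamdc2 then held 1.507 to 2.437 FPKM in Het and 1.354 to 1.975 FPKM in WT, and Pgm2l1 1.048 to 1.785 FPKM in Het and 1.248 to 1.627 FPKM in WT. Of the 798 genes with an unadjusted p under 0.05 at PND21, 58.5% had the same sign at PND15. Of all 14054 genes 51.8% did, and of the 799 without overlap 52.8% did.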

How the data were processed

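Each value deposited by the authors is an FPKM for 1 gene in 1 library. The submitters' processing notes list HISAT2 2.0.5, featureCounts 1.5.0-p3, StringTie 1.3.3b and fastp, with no roles. No source used here names the genome build. Per the labels' protocols, mRNA was taken with poly-T beads, and since their account of strand is mixed, antisense partners cannot be told apart. Multiplied by gene length, the FPKM gave whole reads in 100% of values (within 0.01 read), at a library size of 0.8327 to 0.8923 times the reads counted in the 7 libraries, so the values carry a further scaling between libraries. Replicates differed by more than counting error (chi-square per degree of freedom 8.451 to 19.8 over 9 pairs).

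Genes with FPKM of at least 1 in 3 of 44 libraries (16283) were transformed to log2(FPKM + 1) and tested in R 4.3.3 with limma 3.58.1 and statmod 1.5.0, using 12 group means, trended and robust empirical Bayes and Benjamini-Hochberg adjustment. A pseudocount of 1 understates fold changes of low genes. Genes with an adjusted p under 0.05 were called. Xdh was also tested by two-sided exact permutation. The fit was tested on simulated data, with 100 genes changed 1.5-fold and 100 changed 2-fold. It recovered 59% and 78% of them, with 9 calls among unchanged genes. The simulated noise was independent between libraries and held no division by title number, so recovery in the real comparison can differ. Named genes are Xdh, the 10 of lowest p per direction with a mean of at least 5 FPKM (as none was called), the 5 of lowest p against PND15, the 5 most like Xdh, and genes taken for their known role. Adsl, Thsd7a, Plce1, Xbp1, Atp5g1, Lck, S100a9, Ndufa1 and the genes of the title number term were chosen after their values were seen. Of 755 entries in 36 lists, 733 matched the table, giving 710 genes, of which 609 met the rule. Some genes of the lists are not reported here by name. Lists not named in the text also had 0 called genes between Het and WT. The genes described and the lists were chosen with earlier results of these data known.

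The alternatives were a pseudocount of 0.1, other filters, TPM, median ratios, array weights, voom on recovered reads, fewer libraries, the title number term and each library left out in turn.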

Additional observations from a re-analysis of the deposited data

Results flagged for a closer look

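In 5 of 86 named genes 1 of the 4 Het libraries stood apart from the other 3 by the Dixon criterion at the 95% level, which chance alone meets in about 1 of 20 groups. In 3 genes this was Het replicate 1, the Het library with a title number of 100 or above. Per1, a clock gene, was at 38.87 FPKM there, and at 16.58 to 18.49 FPKM in the other Het libraries. Lcn2, an injury marker, was at 6.813 FPKM, with the other Het libraries at 11.77 to 11.99. Ndufaf5, an assembly factor of complex I, was at 14.76 FPKM, with the others at 18.72 to 19.42. In Het replicate 4 the urate exchanger Slc22a12 was at 178 FPKM, with the others at 235.2 to 245.1. In Het replicate 2 the purine enzyme Pnp was at 133.1 FPKM, with the others at 121.5 to 123.4. The WT libraries of title numbers of 100 and above had Per1 at 47.57 and 47.3 FPKM and the remaining WT library at 17.12.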

How the results depend on the processing

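The count of 0 genes called between Het and WT was 9 without the filter on low values (Zfp189 and 8 genes below the minimum), 3 with array weights (Gas2l1, Zfp189 and Olr1411), and from 0 to 1 when 1 library was left out: 1 without Het replicate 1 (Mir6325), Het replicate 3 (AC109542.2) or WT replicate 3 (Olr1411). Mir6325 and AC109542.2 met the rule through Het libraries alone, and each was at 0 FPKM in the Het library left out. The count was 0 in the other alternatives, including both fits with the title number term (495 and 690 of 16283 genes at an unadjusted p under 0.05), the fit on the 7 libraries alone (829) and that on the 10 PND21 libraries (819). The contrast with PND15 gave 1 gene, LOC100910318, with the PND0 libraries left out (chosen after seeing the data), and from 0 to 1 when 1 library was left out, 1 without WT replicate 2 at PND21, again LOC100910318. Xdh was lower in Het in every alternative, at -0.73 to -1 with 1 library left out. Its exact permutation p was 0.0571 to 0.1 over the alternatives, including 0.0833, the smallest possible, when libraries were permuted within the 2 kinds of title number (12 arrangements). Of 1688 alternatives over 85 named genes, 13 moved a difference by more than the spread between replicates. A call came in 3 of them (Zfp189 in 2, Gas2l1 in 1). The 20 genes of lowest p kept their sign in all, which their choice by low p in these same data favours. In most of them the groups did not overlap, so leaving out 1 library cannot change the sign. Median ratios left the values as they were, since the deposited FPKM already had this scaling. No paired analysis was possible because replicates are numbered as the records are ordered, which pairs nothing. The cause of these differences was not tested. Of the 14054 genes, 82.6% had an interval within 1.5-fold on the log2(FPKM + 1) scale.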
